A study of Homo sapiens with 3 samples.

Results

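The proteasome genes were taken from single-cell RNA sequencing of CAMA-1 spheroids as every row of the count tables whose symbol begins with PSMA, PSMB, PSMC, PSMD, PSME, PSMF or PSMG. This gave 53 rows, of which 5 antisense rows were left out and 0 were pseudogene rows, so that 48 genes of the 22499 rows with a symbol were followed. CAMA-1 is an estrogen receptor-positive human breast cancer cell line. Its parental cells, sensitive to the CDK4/6 inhibitor ribociclib, carried the fluorescent protein Venus, and a subline made resistant by long culture in ribociclib carried mCherry. Spheroids of sensitive cells, of resistant cells, or of both mixed at 50% each were grown with DMSO and 1 µM ribociclib for 11 days, so every cell described here had received the drug and no untreated library was analysed. Each composition gave 1 library, and the authors' annotation split the cells into 4 populations: 3329 sensitive cells from monoculture and 2059 from coculture, and 6292 resistant cells from coculture and 7557 from monoculture. Sensitive and resistant cells are 1 line and 1 derived subline, the 2 coculture populations share a library, and no condition has a replicate, so differences below are between these libraries and carry counting error only.

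The proteasome degrades proteins tagged with ubiquitin. Its barrel-shaped core holds outer rings of alpha subunits (PSMA) and inner rings of beta subunits (PSMB), and a cap, made of a base with a ring of ATPases (PSMC) and of a lid (PSMD), recognises, unfolds and feeds in the substrate. Interferon induces PSMB9, PSMB10 and PSMB8, which take the places of the catalytic beta subunits PSMB6, PSMB7 and PSMB5 and so give the immunoproteasome, and it also induces the PA28 activator (PSME1 and PSME2). These forms favour peptides for presentation on MHC class I. Dedicated chaperones (PSMG1 to PSMG4 for the core, PSMD5, PSMD9 and PSMD10 for the base) help assembly and are absent from the finished particle.

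The groups were 7 alpha subunits, 6 beta subunits, 5 immunoproteasome genes, 6 base ATPases, 3 other base subunits, 8 lid subunits, 2 further activators, 1 inhibitor, 7 assembly factors and 2 forms of testis and thymus. No row carried the symbol PSMB3, so the constitutive sum below holds 13 core and 17 cap subunits. PSMC3IP fits the rule by its letters only: it encodes a recombination protein, so it entered none of the sums by role but is among the genes counted below.

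The promoters of the immunoproteasome genes are shown because most of them hold the letters of an interferon response element, which few other genes hold there. In RefSeq promoters (GRCh38.p14, 250 bases before to 50 bases after the start site), 42 of the 48 genes were matched. An interferon response core, written here as GAAA, any 2 bases and GAAA again and searched on both strands, lay in the promoters of 4 of the 5 immunoproteasome genes of 2 of 25 constitutive subunits (PSMA4 and PSMB4) and of 1 of 6 assembly factors (PSMG4), against 4.38% of the 27305 genes with a promoter in the table. The windows of 30 bases below are written on the strand of the gene, with the match in capitals. In PSMB8 and PSME1 the match lies on the opposite strand.
PSMB8 (chr6:32844032-32844061, minus strand): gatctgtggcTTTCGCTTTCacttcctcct
PSMB10 (chr16:67936852-67936881, minus strand): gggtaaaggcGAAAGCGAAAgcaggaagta
PSME1 (chr14:24136189-24136218, plus strand): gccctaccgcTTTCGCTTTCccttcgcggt
PSME2 (chr14:24146619-24146648, minus strand): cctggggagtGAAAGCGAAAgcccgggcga
In all 4 genes the 10 matched bases were the same apart from strand. PSMB9, which lies beside PSMB8 on chromosome 6, had no match in its window. The antioxidant response core TGACNNNGC, to which factors of the NRF family bind, was found in 14 of the 42 matched genes and in 16.1% of all genes. These were 3 of the 5 immunoproteasome genes (PSMB9, PSME1 and PSME2), 6 of 25 constitutive subunits, 4 of 6 assembly factors (PSMD5, PSMD9, PSMG1 and PSMG2) and the activator gene PSME4. PSMA4 is shown as the constitutive subunit that holds both cores. The match lay 126 to 118 bases before the start site of PSMA4:
PSMA4 (chr15:78540650-78540679, plus strand): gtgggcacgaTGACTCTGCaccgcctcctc
CCAAT was found in 20 of the 42 matched genes and in 39.7% of all genes. A match is a description of the letters and was not tested as a binding site.

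Summed over a population, the proteasome genes took a similar share of the transcriptome everywhere. Core and cap subunits together made up 5633 CPM (UMI counts scaled to the same total in each population; 95% Poisson interval 5618 to 5648) in sensitive monoculture, 5841 (5823 to 5859) in sensitive and 5832 (5821 to 5843) in resistant coculture, and 6194 (6185 to 6203) in resistant monoculture. PSMA7, the most abundant of these subunits, was at 848, 947, 1033 and 959 CPM in the same order. The sum without it was not computed. The summed levels ran from sensitive to resistant monoculture, and the coculture populations lay between them with overlapping intervals. The sum in sensitive cells was thus higher in coculture than in monoculture by 0.05 on the log2 scale (exact interval 0.05 to 0.06). The sum in resistant cells was lower in coculture than in monoculture by a log2 ratio of -0.09 (-0.09 to -0.08), and by -0.16 after TMM scaling. Between the monocultures, resistant cells were higher by 0.14 (0.13 to 0.14). The immunoproteasome genes differed more, with 464, 572, 619 and 630 CPM in the same order of populations. Their log2 ratio was 0.30 (0.28 to 0.32) for sensitive coculture over sensitive monoculture and -0.03 (-0.04 to -0.01) for resistant coculture over resistant monoculture. The latter was -0.10 after TMM scaling and -0.01 (-0.02 to 0.01) among G1 cells.

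Facts of the libraries move with these sums. Mitochondrial genes took 20.3% of UMIs in sensitive monoculture, 17.6% in sensitive and 15.9% in resistant coculture, and 16.1% in resistant monoculture. The median UMIs per cell were 27622, 34056, 30687 and 35443, and the annotation put 89.0%, 55.3%, 49.7% and 50.0% of the cells in G1. With mitochondrial genes left out of the total, the constitutive ratio between sensitive coculture and monoculture became 0.01. That of resistant over sensitive monoculture, 0.14, became 0.06 in this way and 0.25 after TMM scaling. The part of depth and phase in the differences between populations was not tested beyond the values within phases and after thinning. Luminal markers (ESR1, GATA3, FOXA1, KRT8, KRT18, KRT19 and EPCAM) summed to 7659 to 9605 CPM, whereas 4 immune markers summed to at most 1.09 CPM, 3 fibroblast markers to at most 3.61 CPM and the endothelial marker VWF to at most 0.291 CPM. The libraries shared 34 to 60 barcodes in pairs, among 8643 to 20227 barcodes each.

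A gene was called higher or lower where the ratio of its CPM + 1 between 2 populations was at least 5/4 or at most 4/5 and they together held at least 50 UMIs of it. With 1 library per condition this is a limit of size and not a test. Of the 48 genes, 46 passed the count limit in all 4 comparisons. Between sensitive coculture and sensitive monoculture, 11 of the 46 were higher (10 of 45 without PSMC3IP) and 1 was lower. Of all 12327 genes compared, 13.3% were higher by this limit and 19.3% were lower, and among the 2318 abundant genes, whose mean was 50 CPM or more, they were 16.1% and 17%. Between resistant coculture and resistant monoculture 2 were higher and 0 lower, against 7.46% and 1.76% of all genes and 8.74% and 3.73% of the abundant ones. After TMM scaling, which moved every log2 ratio here by -0.07, 1 of the 46 was higher and 8 were lower, against 4.33% and 4.95% of all genes and 5.01% and 11.7% of the abundant ones. Between the monocultures 9 were higher (8 without PSMC3IP) and 2 lower in resistant cells, against 15.4% and 26.5% of all genes and 21.9% and 18.5% of the abundant ones. TMM scaling moved the ratios by 0.11 and gave 15 higher, against 21% of all genes and 31% of the abundant ones. Within the coculture library 0 were higher and 3 lower in resistant cells, against 8.12% and 11.6% of all genes and 6.41% and 8.88% of the abundant ones. The remaining 28 of the 46 (60.9%) passed the limit in none of the 4 comparisons, against 41.1% of the 12222 genes compared in all 4 and 42.5% of the abundant ones. The median log2 ratio over the 46 genes was 0.07, -0.06, 0.09 and 0.00 in these comparisons, beside -0.05, 0.03, -0.07 and 0.00 over all genes compared and -0.01, -0.04, 0.03 and 0.01 over those whose mean was 50 CPM or more. The sign of the background in the second and the third comparison thus depended on which genes were taken.

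**Figure D1:**
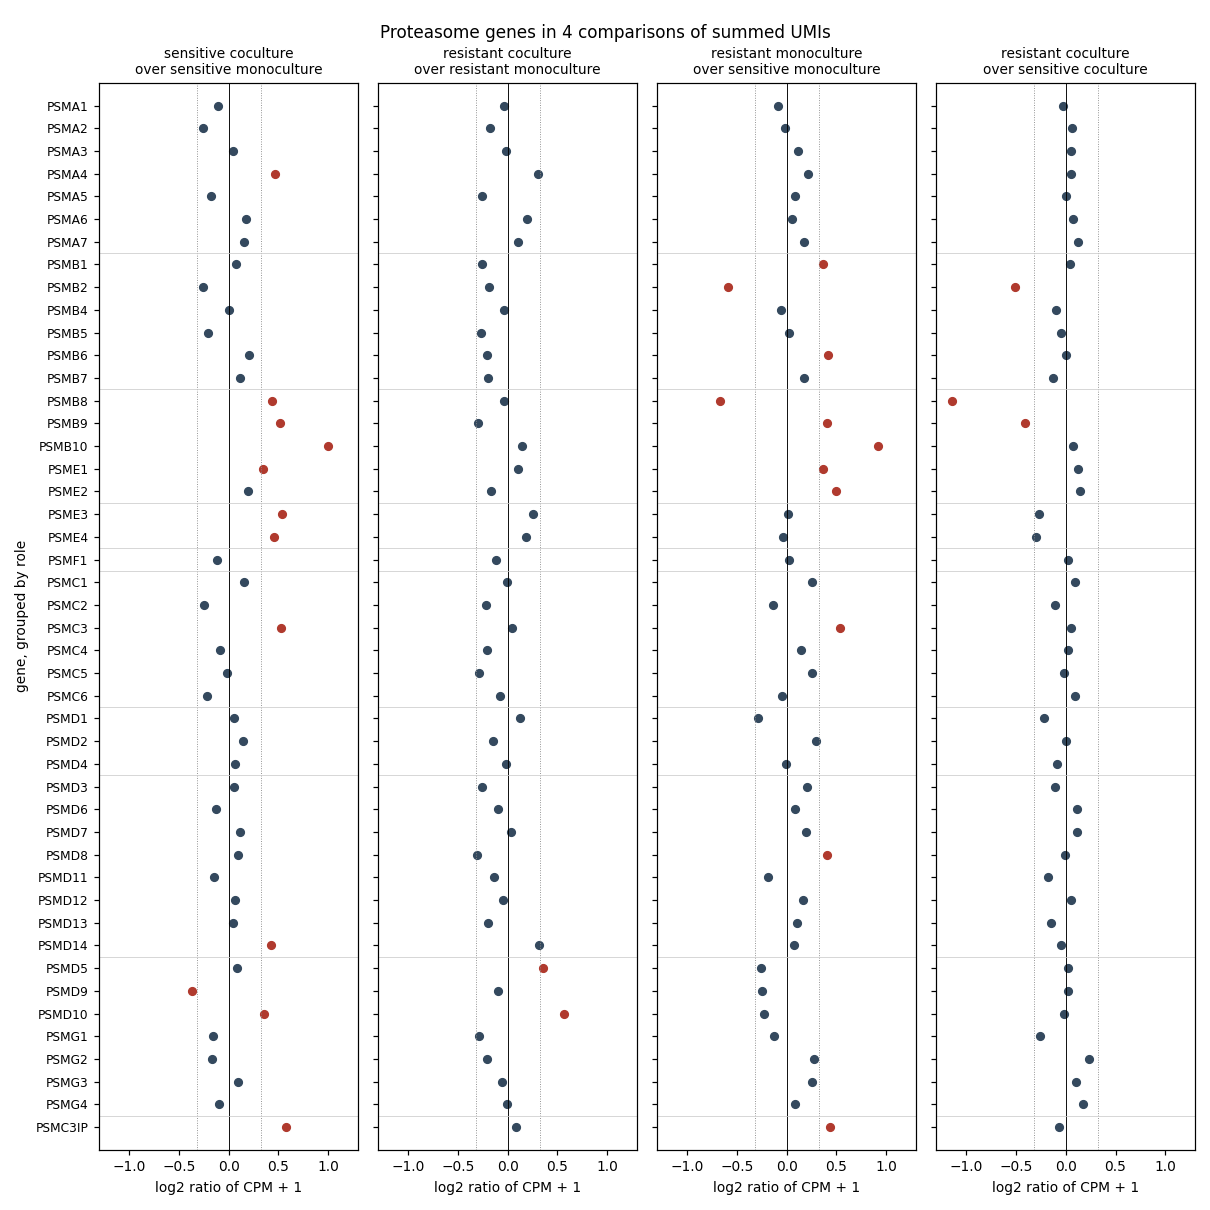
Log2 ratio of CPM + 1 (x axis) for 46 proteasome genes (rows, grouped by role with thin lines between groups) in 4 comparisons of populations; red points are past the limits of 5/4 and 4/5, drawn as dotted lines. Most points sit between the dotted lines, and the widest spread is in the immunoproteasome genes, from -1.14 for PSMB8 within the coculture to 1.00 for PSMB10 in sensitive cells.

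Among the immunoproteasome genes, PSMB10, the immune counterpart of PSMB7, differed most between the sensitive populations. It stood at 9.44 CPM (8.84 to 10.1) in sensitive monoculture, 19.8 (18.8 to 20.9) in sensitive and 20.8 (20.2 to 21.5) in resistant coculture, and 18.7 (18.2 to 19.3) in resistant monoculture. Sensitive monoculture was thus alone at the low level, with log2 ratios of 1.00 for sensitive coculture over it and 0.92 for resistant monoculture over it. PSMB10 is at chr16:67968409-67970767 on the minus strand (GRCh37). Of its exonic bases, 39.4% overlap exons of another gene on that strand, so its level is uncertain.

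PSMB8, the counterpart of PSMB5, followed lineage when summed over each population. It was at 3.20 CPM (2.85 to 3.58) in sensitive monoculture and 4.70 (4.21 to 5.23) in sensitive coculture. This difference was past the limit, but within cluster 3 of the annotation monoculture was the higher, as given with the clusters. In resistant cells it was at 1.58 (1.41 to 1.76) in coculture and 1.64 (1.49 to 1.80) in monoculture. Both resistant populations were below both sensitive populations, with a log2 ratio of -1.14 within the coculture and -0.67 between the monocultures. These levels rest on 308 to 444 UMIs per population, and single clusters of the lineages overlapped. PSMB8 is at chr6:32808494-32812456 on the minus strand (GRCh37).

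PSMB9, the counterpart of PSMB6, was at 6.28 CPM (5.78 to 6.80) in sensitive monoculture, 9.39 (8.69 to 10.1) in sensitive and 6.85 (6.49 to 7.22) in resistant coculture, and 8.65 (8.30 to 9.01) in resistant monoculture. Coculture went with a higher level in sensitive cells (log2 ratio 0.51) and a lower one in resistant cells (-0.30), and the latter did not pass the limit. PSMB9 also followed phase, and within G1 cells both differences were smaller and within the limit, as given with the phases. The 2 sensitive populations lie in different clusters of the annotation. Of the clusters that they share, PSMB9 went the other way in cluster 3, and in the others the intervals overlapped, as given with the clusters. The 3 immune beta genes were therefore not ordered alike: PSMB10 was low in 1 population, PSMB8 was low in a lineage, and PSMB9 was high in sensitive coculture and in resistant monoculture.

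The PA28 genes, which encode an activator ring that docks on the core, held most of the UMIs in the immunoproteasome sum. PSME1 (chr14:24605372-24608176, plus strand, GRCh37) was at 228 CPM (225 to 231) in sensitive monoculture, 289 (286 to 293) in sensitive and 315 (313 to 318) in resistant coculture, and 293 (291 to 295) in resistant monoculture. PSME2 (chr14:24612571-24616779, minus strand, GRCh37) was at 218 CPM (215 to 221), 249 (245 to 252), 275 (272 to 277) and 308 (306 to 310) in the same order. Sensitive monoculture was the lowest for both. Without the PA28 genes, PSMB8, PSMB9 and PSMB10 summed to 18.9 CPM in sensitive monoculture, 33.9 in sensitive and 29.3 in resistant coculture, and 29.0 in resistant monoculture. On the log2 scale this smaller sum was 0.84 higher in sensitive coculture than in sensitive monoculture, and -0.21 is its ratio of resistant to sensitive cells within the coculture. Most of the difference between the sensitive populations is PSMB10, at 9.44 and 19.8 CPM, whose level is uncertain by the overlap given above.

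**Figure D2:**
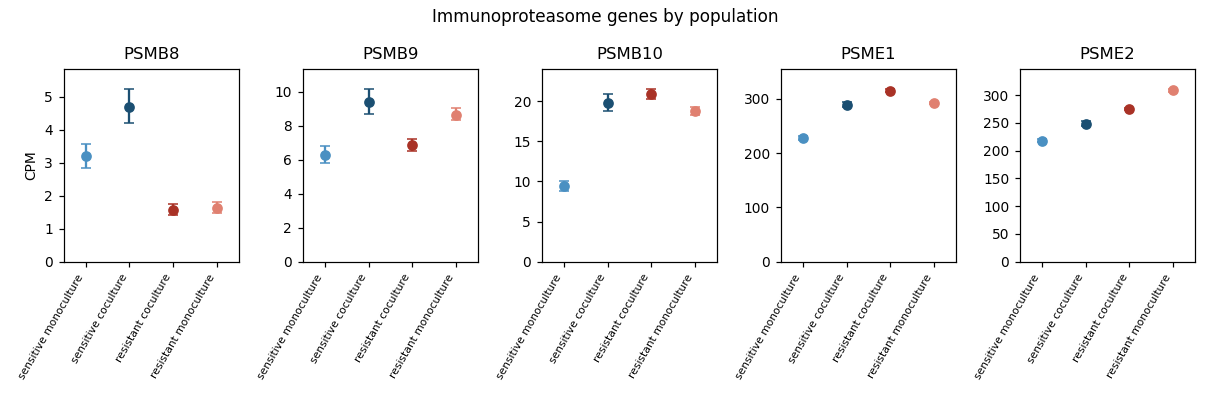
CPM (y axis, from 0 and scaled separately in each panel) of PSMB8, PSMB9, PSMB10, PSME1 and PSME2 in the 4 populations (x axis), each a sum over 1 population, with 95% Poisson intervals as bars. PSMB10 is lowest in sensitive monoculture at 9.44 CPM, whereas PSMB8 is lowest in the resistant populations at 1.58 and 1.64 CPM.

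The constitutive catalytic subunits were ordered otherwise than their immune counterparts. PSMB5, with chymotrypsin-like activity, was at 337 CPM (334 to 341) in sensitive monoculture, 293 (289 to 297) in sensitive and 284 (281 to 286) in resistant coculture, and 343 (341 to 345) in resistant monoculture. Both coculture populations were below both monocultures, within the limit. PSMB6, with caspase-like activity, was at 234 CPM (231 to 237), 269.8 (266 to 274), 270.0 (268 to 272) and 312 (310 to 314) in the same order. PSMB6 was past the limit between the monocultures, at a log2 ratio of 0.41. PSMB7, with trypsin-like activity, was at 198, 214, 195 and 223 CPM and passed the limit in no comparison.

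Of the other beta subunits, PSMB2 (chr1:36065142-36107127, minus strand, GRCh37) followed lineage like PSMB8. It was at 189 CPM (186 to 192) in sensitive monoculture, 158 (155 to 161) in sensitive and 110 (109 to 112) in resistant coculture, and 125 (124 to 127) in resistant monoculture. The log2 ratio of resistant to sensitive cells was -0.59 between the monocultures and -0.51 within the coculture. PSMB2 thereby went against the beta ring as a whole, whose sum had a ratio of 0.10 between the monocultures. PSMB1 was higher in resistant than in sensitive monoculture by 0.36, at 267 against 208 CPM.

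In the alpha ring, which gates the entry to the barrel, PSMA4 was the gene that differed most with coculture. It was at 212 CPM (209 to 215) in sensitive monoculture, 294 (290 to 298) in sensitive and 304 (302 to 306) in resistant coculture, and 246 (245 to 248) in resistant monoculture. The ratio of coculture to monoculture was 0.47 in sensitive and 0.30 in resistant cells, and the latter lay just inside the limit. PSMA2 had the lowest ratio in sensitive cells, -0.26, with 167 CPM in coculture and 200 CPM in monoculture. PSMA6 was at 10.2 to 12.4 CPM, but the annotation names 4 pseudogenes for it and 14.1% of its exonic bases overlap another gene on its strand, so its level is uncertain. The same kind of doubt holds for PSMA2 (3 pseudogenes, 17.2% of exonic bases) and PSMA1 (1 pseudogene, 26.7%), for PSMD9 by overlap alone (14.9%), and by pseudogenes alone for PSMC1 (13), PSME2 (6), PSMD10 (3), and PSMC2 and PSMG3 (2 each).

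The cap gave the same picture of single genes leaving a flat group. PSMC3, a base ATPase, was at 62.1 CPM (60.5 to 63.7) in sensitive monoculture against 89.8 (87.6 to 92.0), 93.2 (91.9 to 94.6) and 90.4 (89.3 to 91.6) in sensitive coculture, resistant coculture and resistant monoculture. Sensitive monoculture again stood alone, and the log2 ratios to it were 0.53 in sensitive coculture and 0.54 in resistant monoculture. PSMC3 also followed phase, and its levels within G1 cells lay closer together, as given with the phases. PSMC2 had the lowest ratio among the ATPases in sensitive cells, -0.25, with 69.5 against 82.7 CPM. The other base subunits PSMD1, PSMD2 and PSMD4, which receive ubiquitinated substrates or the factors that carry them, had ratios of 0.05, 0.15 and 0.07 in sensitive cells and passed the limit in no comparison.

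In the lid, PSMD14, the deubiquitinase that removes ubiquitin chains before degradation, resembled PSMA4. It was at 109 CPM (107 to 112) in sensitive monoculture, 148 (145 to 151) in sensitive and 143 (141 to 145) in resistant coculture, and 115 (114 to 116) in resistant monoculture. Both coculture populations were above both monocultures, with ratios of 0.43 in sensitive and 0.31 in resistant cells. PSMD11 had the lowest lid ratio in sensitive cells, -0.15. PSMD8 was higher in resistant than in sensitive monoculture by 0.40, at 494 against 374 CPM.

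The other activators also went with coculture. PSME3, the nuclear activator PA28 gamma, was at 52.2 CPM in sensitive monoculture, 76.0 in sensitive and 63.1 in resistant coculture, and 52.8 in resistant monoculture. PSME4, which encodes PA200, was at 14.6, 20.3, 16.3 and 14.2 CPM in the same order. For both genes the monocultures were alike and sensitive coculture was highest, with ratios of 0.53 and 0.45 in sensitive cells beside 0.25 and 0.19 in resistant cells. The inhibitor PSMF1 had a ratio of -0.12 in both lineages, at 54.3 to 60.1 CPM.

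Among the assembly factors, PSMD10, also known as gankyrin, was past the limit in coculture in both lineages, and no other gene of the 46 was. It was at 32.0 CPM (30.8 to 33.1) in sensitive monoculture, 41.1 (39.7 to 42.7) in sensitive and 40.6 (39.8 to 41.5) in resistant coculture, and 27.1 (26.5 to 27.7) in resistant monoculture. The ratios were 0.35 and 0.57, and since both coculture populations come from 1 library, coculture and library cannot be told apart. PSMD5 was higher in resistant coculture than in resistant monoculture by 0.36, at 22.9 against 17.7 CPM, and PSMD9 had the lowest ratio in sensitive cells, -0.37, at 21.6 against 28.2 CPM. The 4 chaperones of the core, PSMG1 to PSMG4, passed the limit in no comparison. The summed assembly factors differed little, from 332 CPM in sensitive coculture to 351 CPM in resistant monoculture.

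The tissue forms were at or near 0. PSMB11, the thymus subunit, had 1 UMI in resistant monoculture and 0 UMIs elsewhere, which allows up to 0.0423 CPM in sensitive coculture. PSMA8, the testis subunit, had 3 UMIs in sensitive monoculture and 0 UMIs elsewhere.

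Phase was called by the authors from canonical cell cycle genes. In each population the constitutive sum was higher in S and G2M cells than in G1 cells. It was 5479 CPM in G1, 6459 in S and 6683 in G2M in sensitive monoculture, and 5545, 6146 and 6177 CPM in sensitive coculture. In resistant cells it was 5547, 6045 and 6117 CPM in coculture and 5885, 6414 and 6556 CPM in monoculture. The log2 ratio of S and G2M together over G1 was 0.26 (exact interval 0.25 to 0.27) in sensitive monoculture, 0.15 (0.14 to 0.16) in sensitive and 0.13 (0.13 to 0.14) in resistant coculture, and 0.14 (0.13 to 0.14) in resistant monoculture. Sensitive monoculture had 366 cells outside G1, 176 in S and 190 in G2M, and their median UMIs were 39101 and 36758 beside 26713 in G1.

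The number of genes past the limit followed the same order, and so did the share of all genes past it. In sensitive monoculture 17 of the 46 genes were higher in S and G2M cells than in G1 cells, against 17.9% of all genes compared and 24.1% of those whose mean was 50 CPM or more. In sensitive coculture 6 were higher, against 13.7% of all genes and 15.3% of the abundant ones. In resistant coculture 3 were higher, against 12.1% and 14.6%, and in resistant monoculture 5 were higher, against 12.8% and 15.4%. Outside sensitive monoculture the counts of the 46 thus lay below the shares of all genes. Without PSMC3IP the counts were 16, 5, 2 and 4 of 45. None of the 46 was lower in any of the 4 populations, against 18.2%, 9.24%, 5.97% and 4.77% of all genes and 8.57%, 3.03%, 2.82% and 1.99% of the abundant ones. The median log2 ratio over the 46 was 0.21, 0.13, 0.09 and 0.11, and over all genes whose mean was 50 CPM or more it was 0.12, 0.08, 0.08 and 0.09.

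PSMC3 and PSMC3IP were past the limit in all 4 populations. PSMC3 was at 58.0 CPM in G1 and 93.1 CPM in G2M of sensitive monoculture, and at 74.2 and 108 CPM in resistant monoculture. In G1 cells of sensitive coculture it was at 76.2 CPM, so sensitive monoculture was lowest of these populations in G1 too. PSMC3IP had the largest ratio of the 46 in each population, 1.34, 1.35, 1.24 and 1.33, and was highest in S, at 34.7 to 43.2 CPM against 10.3 to 11.8 CPM in G1. Within G1 cells it was at 11.4 CPM in sensitive monoculture and 11.8 CPM in sensitive coculture, so its ratio between these populations, 0.58 over all cells, was 0.05 in G1. PSMG1, a chaperone of the alpha ring, was at 68.0, 55.7, 46.8 and 55.1 CPM in G1 cells and at 97.8, 72.8, 59.6 and 73.3 CPM in S cells, in the order of populations used above.

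Other members that were past the limit in cycling cells of sensitive monoculture were PSMA2, PSMA3, PSMA4 and PSMA5 of the alpha ring, PSMB2 and PSMB6 of the beta ring, PSMD2, PSMD3, PSMD8, PSMD11 and PSMD12 of the cap, the chaperone PSMG3 and the immune subunits PSMB8 and PSMB9. Their ratios ran from 0.32 for PSMB6 to 0.69 for PSMB8. The alpha ring had a larger summed ratio than the beta ring in each population: 0.31 against 0.22 in sensitive monoculture, 0.17 against 0.10 in sensitive and 0.17 against 0.04 in resistant coculture, and 0.16 against 0.06 in resistant monoculture. Assembly factors stood at 0.25, 0.22, 0.21 and 0.25.

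Summed, the immunoproteasome genes, mostly PSME1 and PSME2 by UMIs, followed phase only weakly outside sensitive monoculture. Their summed ratio of S and G2M over G1 was 0.23 (0.19 to 0.27) in sensitive monoculture, 0.05 (0.02 to 0.08) in sensitive and 0.01 (-0.01 to 0.03) in resistant coculture, and 0.05 (0.03 to 0.06) in resistant monoculture. With mitochondrial genes left out of the total these ratios were 0.17, 0.00 (-0.03 to 0.03), -0.02 (-0.04 to -0.01) and 0.00 (-0.01 to 0.02), and of these intervals only that of sensitive monoculture (0.13 to 0.21) lay above 0. PSMB9 was higher in G2M than in G1 in each population, at 12.3 against 5.81 CPM in sensitive monoculture, 14.9 against 7.16 CPM in sensitive and 8.12 against 6.17 CPM in resistant coculture, and 12.6 against 7.16 CPM in resistant monoculture. Among these G1 levels, coculture and monoculture differed within the limit in both lineages. PSMB10 had no such pattern, with 9.10 CPM in G1 and 9.85 CPM in G2M of sensitive monoculture and 19.6 and 16.2 CPM in resistant monoculture.

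**Figure D3:**
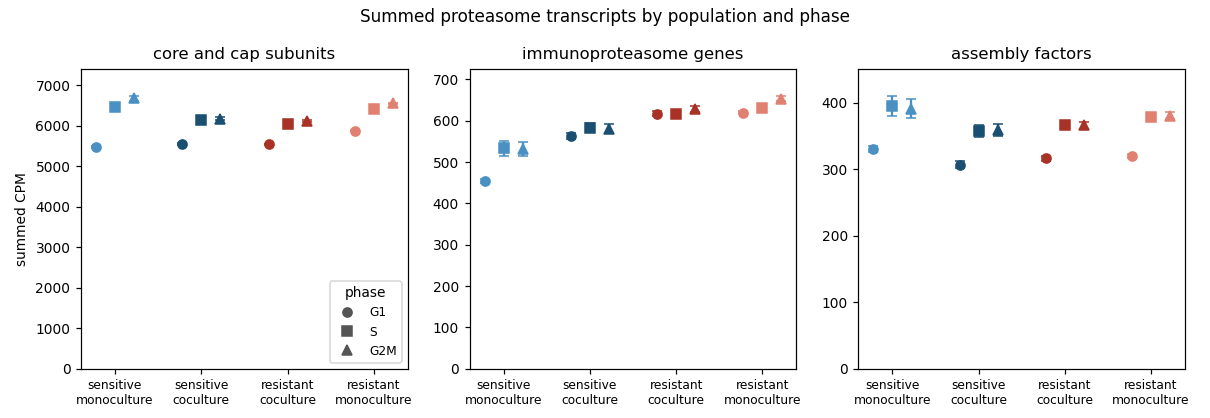
Summed CPM (y axis, from 0) of the core and cap subunits, the immunoproteasome genes and the assembly factors in G1 (circles), S (squares) and G2M (triangles) cells of the 4 populations (x axis); bars are 95% Poisson intervals. Core and cap sums lie lowest in G1 in each population, from 5479 to 5885 CPM, and the step to S is widest in sensitive monoculture.

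Since far fewer cells were outside G1 in sensitive monoculture, the comparisons were repeated within each phase. For sensitive coculture over sensitive monoculture the constitutive ratio was 0.02 (0.01 to 0.02) in G1, -0.07 (-0.09 to -0.06) in S and -0.11 (-0.13 to -0.10) in G2M. The direction over all cells was thus present in G1 cells alone, and the S and G2M cells of sensitive monoculture held the higher sums. Between the monocultures the ratio was 0.10 in G1, -0.01 in S and -0.03 in G2M. In resistant cells coculture was below monoculture in each phase, at -0.09, -0.09 and -0.10.

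The sum of the immunoproteasome genes, most of it PSME1 and PSME2, kept its direction in sensitive cells within each phase. The summed ratio of sensitive coculture to sensitive monoculture was 0.31 (0.29 to 0.34) in G1, 0.13 (0.08 to 0.19) in S and 0.13 (0.07 to 0.18) in G2M. PSMB10 had ratios of 1.06, 0.62 and 0.82 in G1, S and G2M. PSMB8 had a ratio of 0.52 in G1 cells, past the limit, at 4.56 against 2.86 CPM. Its ratios in S and G2M were 0.12 and -0.26, with exact intervals of -0.49 to 0.82 and -0.86 to 0.25, and rest on 28 and 43 UMIs in sensitive monoculture, so that no direction can be read from them. Within the coculture library PSMB8 was lower in resistant than in sensitive cells in G1, S and G2M, by ratios of -1.04, -1.38 and -1.11.

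Cell by cell the spread was wide against the differences of the populations. After each cell was thinned to 5000 UMIs, core and cap subunits took a median of 26 UMIs in sensitive monoculture, 28 in sensitive and 29 in resistant coculture, and 30 in resistant monoculture. The middle 50% of cells ran from 21 to 32, 23 to 34, 23 to 34 and 25 to 36 UMIs, and so overlapped in all populations. No cell was too shallow for this thinning. The variance over cells was 2.29, 2.10, 2.04 and 2.24 times the mean, where counting alone would give a ratio near 1.

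The immune beta genes also varied between the authors' clusters. A population's level averages over its clusters, so a wider range over clusters than over populations is built in. These clusters were built on expression, so what follows describes them without a test, and only clusters with at least 50 cells of a population are given. PSMB8, PSMB9 and PSMB10 summed to 24.5 to 39.0 CPM in 8 of the 10 clusters of resistant coculture cells, but to 78.7 CPM (66.9 to 91.8) in cluster 9, with 67 cells, and to 91.8 CPM (77.9 to 107) in cluster 13, with 55 cells. In resistant monoculture cluster 9 (108 cells) had 113 CPM (102 to 125) and cluster 13 (51 cells) had 129 CPM (113 to 146), and the other clusters had 24.5 to 33.6 CPM. The same clusters were the high ones in both libraries. Cells of both libraries share these cluster numbers, which were built on expression, so this is not a replication.

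PSMB9 carried most of this. It was at 41.8 CPM in cluster 9 and 48.8 CPM in cluster 13 of resistant coculture, and at 69.5 and 68.2 CPM in those of resistant monoculture, against 2.17 to 13.9 CPM in the other clusters of resistant cells. PSMB8 was at 10.0 to 18.1 CPM in these clusters and at 0.592 to 3.604 CPM in the others. PSME1 and PSME2 were also highest there, at 365 to 481 CPM and 411 to 512 CPM. PSMB10 was higher in cluster 13 (32.9 and 44.4 CPM), whereas in cluster 9 it was at 22.1 and 25.6 CPM, beside 15.5 to 24.0 CPM elsewhere in resistant cells.

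The sensitive populations filled different clusters. Monoculture cells were mostly in clusters 4 and 8 (1945 and 681 cells), and coculture cells in clusters 3 and 7 (1087 and 617 cells). Clusters 3, 4 and 7 held at least 50 cells of each. PSMB9 was at 12.8 CPM (10.5 to 15.5) in monoculture and 6.0 (5.24 to 6.84) in coculture cells of cluster 3, at 4.67 and 2.81 CPM in cluster 4 and at 10.8 and 12.8 CPM in cluster 7. The intervals were apart in cluster 3 alone, where monoculture was the higher, against the direction over all cells.

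PSMB8 was at 7.25 CPM (5.54 to 9.31) in monoculture and 3.78 (3.18 to 4.47) in coculture cells of cluster 3, and its intervals overlapped in clusters 4 and 7. Monoculture cells of cluster 8 had 2.06 CPM (1.40 to 2.93) of it, and those of cluster 12 had 0.514 CPM (0.06 to 1.86), from 2 UMIs. Resistant cells of cluster 5 had 2.59 CPM (1.94 to 3.39) in coculture and 3.03 (2.45 to 3.70) in monoculture. These intervals overlapped that of cluster 8. Cluster 0, the largest of resistant cells, was lower, at 0.870 and 0.797 CPM. PSMB10 was higher in coculture in each shared cluster, at 20.5 against 11.6 CPM in cluster 3, 21.3 against 9.80 CPM in cluster 4 and 19.5 against 11.6 CPM in cluster 7.

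The constitutive sum also varied between clusters, where a wider range than between populations is again built in. In resistant monoculture it ran from 4293 CPM (4195 to 4392) in cluster 11, with 57 cells, to 7210.1 CPM (7143 to 7278) in cluster 10, with 148 cells, and in resistant coculture from 5485 CPM in cluster 0 to 6700 CPM in cluster 10. In sensitive cells it ran from 5070.3 to 6617 CPM in monoculture and from 5241 to 6230.2 CPM in coculture, with cluster 7 the highest in each. In clusters 9 and 13 the constitutive subunits stood at 5554 and 5820 CPM in resistant coculture, beside 5832 CPM over all its cells, and at 5909 and 6695 CPM in resistant monoculture, beside 6194 CPM over all its cells. Left out together, clusters 9 and 13 (122 cells of resistant coculture and 159 of resistant monoculture) took PSMB9 from 6.85 to 6.12 CPM and from 8.65 to 7.39 CPM, and PSMB8 from 1.58 to 1.37 CPM and from 1.64 to 1.31 CPM. Both genes were highest in these clusters of the resistant cells, so leaving the clusters out could only lower the levels. The difference from the sensitive populations was not tested in this way.

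**Figure D4:**
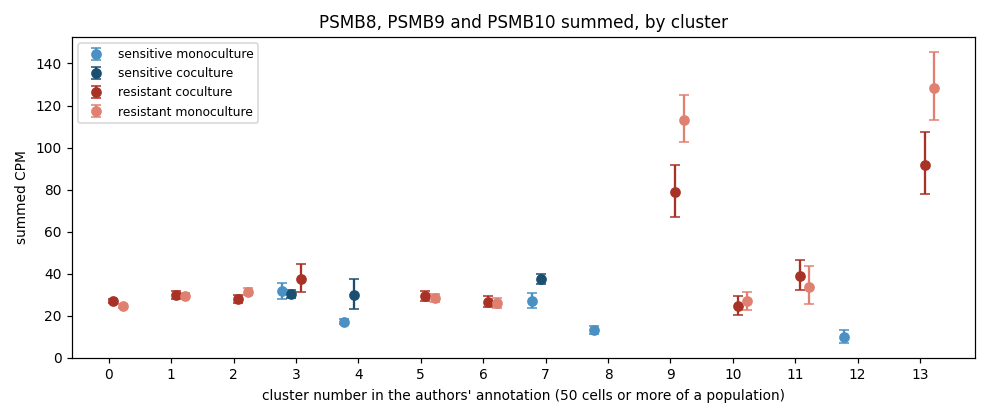
Summed CPM (y axis, from 0) of PSMB8, PSMB9 and PSMB10 in each cluster of the authors' annotation (x axis) with 50 or more cells of a population; colours mark the population and bars are 95% Poisson intervals. Clusters 9 and 13 of the resistant populations lie at 78.7 to 129 CPM, and the lowest value is 9.76 CPM in cluster 12 of sensitive monoculture.

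The peptide transporter that feeds MHC class I is encoded by TAP1, a neighbour of PSMB9, and by TAP2. Their log2 ratios of sensitive coculture to sensitive monoculture were -0.81 and -0.25, beside 0.51 for PSMB9. Both transporter genes were chosen after their values were seen.

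Other genes of the pathway were followed by role. Of 10 subunits and assembly factors with other symbols (such as ADRM1, SEM1 and POMP), 0 were higher and 2 lower for sensitive coculture over sensitive monoculture, and 1 was higher and 1 lower for resistant coculture over resistant monoculture, beside the shares of all genes given above (13.3% and 19.3%, then 7.46% and 1.76%). Their summed ratio in sensitive cells was 0.07. Of 10 shuttle and unfoldase genes, which carry or unfold ubiquitinated proteins, 0 were higher and 1 lower in sensitive cells, and 1 was higher and 0 lower in resistant cells, beside the same shares. With 10 genes a list, these counts do not set either list apart. NFE2L1, the factor that raises proteasome genes when the proteasome is inhibited, had ratios of -0.03 in sensitive and 0.27 in resistant cells for coculture over monoculture. NFE2L2, its relative in the oxidative stress response, had 0.34 and 0.48. The ubiquitin activating enzyme UBA1 had 0.42 and 0.41.

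Other large complexes were measured beside the proteasome. The 8 subunits of the chaperonin, a folding machine of the cytosol, had summed ratios of 0.03 in sensitive and -0.16 in resistant cells for coculture over monoculture, and of 0.39, 0.27, 0.25 and 0.25 for cycling over G1 cells in the 4 populations. The cytosolic ribosomal protein genes had 0.40 and -0.03 for coculture over monoculture. The ratio of the constitutive proteasome sum in sensitive cells, 0.05, lay beside that of the chaperonin and below that of the ribosomal protein genes, a difference that 1 library per condition cannot test.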

How the data were processed

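Cells were captured with a 10x Genomics 3′ kit. The authors counted UMIs per gene and barcode with Cell Ranger 3.0.2 on GRCh37 and deposited the counts without normalization. Their deposited annotation holds UMI and gene counts per cell, S and G2M scores, the mitochondrial percent, and the phase, cluster and population of the cells that they kept after quality limits and removal of predicted doublets. The paper also required at least 2 UMIs of mCherry or mVenus per cell, and some annotated cells held fewer in the deposited counts. No doublet caller was run here. The annotation holds 8 more columns that were left unread. Rows with no symbol (0.523% to 0.591% of UMIs) were left out, which left 96247731 UMIs in sensitive monoculture, 70896822 in sensitive and 199632131 in resistant coculture, and 270891547 in resistant monoculture. UMIs were summed per population and given as CPM with exact Poisson intervals. Ratios of sums carry exact Clopper-Pearson intervals conditional on their total. These 95% intervals cover counting error alone, and 0 UMIs were read as allowing up to 3. Single genes were compared as log2(CPM + 1). With 1 library per condition there is no test and no p-value, since cells are not replicates.

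The members, lists and limits were chosen with earlier results of these data known. Genes were named by role: the catalytic and immunoproteasome genes in full, the highest and lowest ratio in sensitive cells in the other roles, roles of 3 or fewer in full, and any gene past the limit, a ratio of CPM + 1 of 5/4 or 4/5. The clusters and the genes named by phase were chosen after their values were seen. Positions and overlaps come from GENCODE on GRCh37, and promoters from RefSeq. Alternatives were TMM scaling (edgeR 4.0.16, as scaling only), mitochondrial genes left out, G1 cells, cells with at least 2 transgene UMIs, thinning to 5000 UMIs, a pseudocount of 10 CPM, no count limit and a fold of 1.5. The sum without the PA28 genes was added after seeing the data. Scripts ran in Python 3.11.15 and R 4.3.3 and were tested on simulated data. Some genes of the lists are not reported here.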

Additional observations from a re-analysis of the deposited data

Results flagged for a closer look

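Coculture went with opposite directions in the sensitive and resistant lineage for the quantities below, given as log2 ratios of coculture to monoculture. They are the sums, which overlap, and the gene past the limit in a lineage. For each, the interval lay above 0 in sensitive cells and below 0 in resistant cells. These quantities are not the full set: PSMB6 had 0.20 and -0.21, and PSME2 had 0.19 and -0.17, within the limit. Each lineage has 1 library per condition, so the difference between lineages was not tested. PSMB9 had 0.515 in sensitive and -0.298 in resistant cells, but within cluster 3 of the annotation it was at 12.8 CPM in sensitive monoculture and 6.0 CPM in sensitive coculture, and the sensitive populations fill different clusters. In G1 cells alone, both differences of PSMB9 were smaller and within the limit. The core sum had 0.0385 and -0.0628, and the cap sum had 0.0716 and -0.120. PSMA7, the most abundant core subunit, was at 848 CPM in sensitive monoculture and 947 CPM in sensitive coculture. In resistant cells it was at 1033 CPM in coculture and 959 CPM in monoculture, the other direction from the core sum. The core sum without PSMA7 was not computed. The constitutive sum, which joins core and cap, had 0.0524 and -0.0869. Its ratio in sensitive cells was -0.07 in S and -0.11 in G2M, the sign of the resistant cells, and 0.00522 (-0.000619 to 0.0111) with mitochondrial genes left out. The immunoproteasome sum had 0.301 and -0.0251. Its ratio in resistant cells was -0.00518 (-0.02 to 0.01) in G1, and 0.0109 (-0.04 to 0.06) for PSMB8, PSMB9 and PSMB10 alone. The opposite directions of these sums thus held over all cells and not under each of these settings.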

How the results depend on the processing

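The limits are the same throughout: 1 library per condition, counting error only, and CPM values that depend on what else a library holds. Of 60 sums recomputed under an alternative, 14 stayed within their counting interval and 46 did not, and of 40 counts 26 stayed within 1.5 times and 14 did not. The cause was not tested. No paired analysis was possible because each condition has 1 library, and for the same reason none was left out. Ratios are log2. Comparison A is coculture over monoculture in sensitive cells and B the same in resistant cells, and C is resistant over sensitive cells in monoculture and D the same in coculture.

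For the constitutive sum, TMM scaling gave 0.0774, -0.159, 0.250 and 0.0144 in A to D, and cells with at least 2 transgene UMIs gave 0.0725, -0.0982, 0.174 and 0.00365. In A, C and D, leaving out mitochondrial genes gave 0.00522, 0.0639 and -0.0313, and thinning gave 0.0822, 0.179 and 0.00666. G1 cells gave 0.0173 in A and 0.103 in C. The ratio in D, -0.00 over all cells, has no settled direction. For S and G2M over G1, leaving out mitochondrial genes gave 0.202 in sensitive monoculture, 0.105 in sensitive and 0.0984 in resistant coculture, and in resistant cells grown alone 0.0952, while thinning gave 0.273, 0.166 and 0.145 in all but the last of these populations.

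For the immunoproteasome sum, TMM scaling gave 0.326, -0.0968, 0.554 and 0.131. PSMB8, PSMB9 and PSMB10 alone, an alternative added after seeing the data, gave 0.842, 0.0109 (-0.04 to 0.06), 0.618 and -0.213 (-0.28 to -0.14), so the ratio in D turned and that in B had an interval on both sides of 0. Leaving out mitochondrial genes gave 0.254, 0.367 and 0.0854 in A, C and D, and thinning gave 0.337, -0.0478 and 0.491 in A, B and C. G1 cells gave -0.00518 in B and 0.132 in D, and cells with at least 2 transgene UMIs gave 0.348 in A and 0.478 in C. For S and G2M over G1, leaving out mitochondrial genes gave 0.171, 0.000931, -0.0245 and 0.00469 in the populations as ordered above, and thinning gave -0.00979 in resistant coculture.

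Counts of genes past the limit follow with the share of all genes under the same setting. A pseudocount of 10 CPM gave 7 higher (6.17%) and 0 lower (7.74%) in A, 1 higher (2.23%) in B and 1 lower (12.3%) in C. A fold of 1.5 gave 1 higher (5.13%) and 0 lower (5.91%) in A, 0 higher (0.669%) in B, 1 higher (6.66%) in C and 1 lower (4.09%) in D. TMM scaling gave 1 higher (4.33%) and 8 lower (4.95%) in B and 15 higher (21%) in C, and of abundant genes 5.01%, 11.7% and 31%. It moved all log2 ratios by 0.03, -0.07, 0.11 and 0.02 in A to D. G1 cells gave 2 lower (19%) in A and 1 lower (1.75%) in B.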
